A study of Homo sapiens with 24 samples.

Results

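SPC24 and SPC25 encode the inner pair of subunits of the NDC80 complex, and their transcripts were followed in 2 human pancreatic ductal adenocarcinoma cell lines exposed to a CDK4/6 inhibitor. They were found as the probes that carry either symbol in any of the 6 gene lists deposited by the authors. This gave 2 genes of 599 named there, with 1 probe each, ILMN_2181432 for SPC24 and ILMN_1814281 for SPC25. These are 2 of 687 named probes and of 47223 on the array, and both passed the filter on dim probes. The lines were AsPC-1, kept in RPMI 1640, and COLO-357, kept in DMEM, both with the same serum and antibiotics, so that line and medium cannot be told apart. Cultures were given either vehicle or PD-0332991 at 5 µM, and were collected at 24 h or at 72 h. The compound is palbociclib, a small-molecule inhibitor of the kinases CDK4 and CDK6, which act with D-type cyclins. The 8 groups held 3 arrays each, 24 in all, and the design text calls the replicates biological. The labelled cell type could not be checked, since 0 of 8 epithelial markers and no marker of the other listed cell types was named in the files.

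The NDC80 complex is a rod-shaped part of the outer kinetochore, the protein structure by which chromosomes attach to spindle microtubules. At the outer end, NDC80 and NUF2 bind the microtubule. At the inner end, SPC24 and SPC25 pair through their globular domains and dock the rod onto the MIS12 complex and CENP-T. Genes of mitosis are transcribed mainly in G2 and M phase. In G1 and in arrested cells, many of them are held silent by the DREAM complex, whose assembly depends on unphosphorylated pocket proteins, and their promoters often hold CCAAT boxes and a CHR element. CDK4/6 phosphorylate RB and the other pocket proteins.

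The promoters of both members are shown because the transcripts moved together. The motifs below are the CCAAT box and CHR element named for such genes, with a CHR variant and an E2F-type site added. The sequences are from RefSeq, build GRCh38.p14, read 5′ to 3′ on the strand of the gene, with 250 bases before and 50 from the annotated start. Both genes lie on the minus strand, SPC24 at chr19:11155733-11156032 and SPC25 at chr2:168890381-168890680. Capitals mark matches on either strand to CCAAT (the CCAAT box), TTTGAA (the CHR element), TTTAAA (a CHR variant) or TTTNNCGC (an E2F-type site).
SPC24: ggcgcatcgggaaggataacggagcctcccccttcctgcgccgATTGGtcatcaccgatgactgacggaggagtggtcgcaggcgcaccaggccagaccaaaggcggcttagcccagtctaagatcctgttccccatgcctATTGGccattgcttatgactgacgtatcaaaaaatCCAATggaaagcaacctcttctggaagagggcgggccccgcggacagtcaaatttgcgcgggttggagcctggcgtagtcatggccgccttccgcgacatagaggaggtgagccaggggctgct
SPC25: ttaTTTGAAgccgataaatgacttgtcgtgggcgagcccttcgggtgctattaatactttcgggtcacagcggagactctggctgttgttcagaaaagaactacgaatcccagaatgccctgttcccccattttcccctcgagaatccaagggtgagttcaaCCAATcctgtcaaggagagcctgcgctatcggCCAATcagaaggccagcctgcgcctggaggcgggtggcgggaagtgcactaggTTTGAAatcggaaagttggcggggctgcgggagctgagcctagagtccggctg

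The SPC24 window held 3 CCAAT boxes, which began 207, 109 and 74 bases before the start, the first and second of them on the opposite strand. The SPC25 window held 2 CCAAT boxes, 88 and 56 bases before the start, and TTTGAA at 247 and at 3 bases before it, all on the strand of the gene. TTTGAA was not in the SPC24 window, and TTTAAA and TTTNNCGC were in neither. Of 35116 promoters of this length, 34.6% held CCAAT, 15.2% TTTGAA, 12.2% TTTAAA and 6.89% TTTNNCGC. Among 18 other named kinetochore genes with a promoter in the table, 13 held CCAAT, 11 TTTGAA, 3 TTTAAA and 3 TTTNNCGC. A match is a description of the letters and not evidence of binding.

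Between 16440 and 20697 probes had a detection p-value under 0.05 per array. The median SD between replicates over the tested probes was 0.248 log2 in the AsPC-1 group with vehicle for 24 h and 0.15 to 0.172 in the other groups. Both members have names here because the authors listed them as changed, in AsPC-1 at 24 h and in COLO-357 at 24 h and at 72 h. Tests of these 3 comparisons are therefore given as descriptions and not as independent support. Neither member was in the AsPC-1 list at 72 h or in the 2 lists of a cyclin knockdown. Differences between 72 h and 24 h use the selected 24 h arrays as well. In RNA from whole cultures, fewer cells with a transcript and less of it per cell cannot be told apart.

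SPC24 was detected on all 24 arrays, and its levels are given on the background-corrected, quantile-normalised log2 scale. In AsPC-1 at 24 h the 3 vehicle arrays were at 9.22, 9.89 and 9.98, and the 3 treated arrays at 8.38, 8.28 and 8.44. At 72 h they were at 10.01, 10.21 and 10.04 with vehicle and at 9.36, 9.60 and 9.37 with the drug. The groups did not overlap at either time, although vehicle replicate 1 at 24 h lay well below its fellows. In COLO-357 at 24 h the vehicle arrays were at 9.54, 9.70 and 9.55 and the treated arrays at 7.52, 7.72 and 7.62. At 72 h they were at 9.26, 9.56 and 9.42 with vehicle and at 8.10, 8.81 and 8.24 with the drug. Treated replicate 2 at 72 h was the highest of its group and still below every vehicle array.

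SPC25, the dimer partner of SPC24, was detected on all arrays except treated AsPC-1 replicates 2 and 3 at 24 h. The AsPC-1 vehicle arrays at 24 h were at 7.70, 8.17 and 8.18 log2, and the treated arrays at 5.86, 5.43 and 5.28. Before normalisation these treated arrays read 130.0, 116.1 and 105.2 on the linear scale, with detection p-values of 0.0195, 0.051 and 0.104, and the vehicle arrays 256.0, 301.6 and 226.7. The treated signals thus lay near background on every array of that group. At 72 h the AsPC-1 arrays were at 8.29, 8.14 and 8.36 with vehicle and at 7.78, 7.84 and 8.14 with the drug, and the groups overlapped narrowly, at treated replicate 3 and vehicle replicate 2. In COLO-357 at 24 h the vehicle arrays were at 8.66, 9.07 and 8.83 and the treated arrays at 6.26, 6.10 and 6.42. At 72 h they were at 8.67, 8.66 and 8.74 with vehicle and at 7.03, 7.90 and 7.32 with the drug. As for SPC24, treated replicate 2 at 72 h was the highest of its group and below all vehicle arrays.

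**Figure D1:**
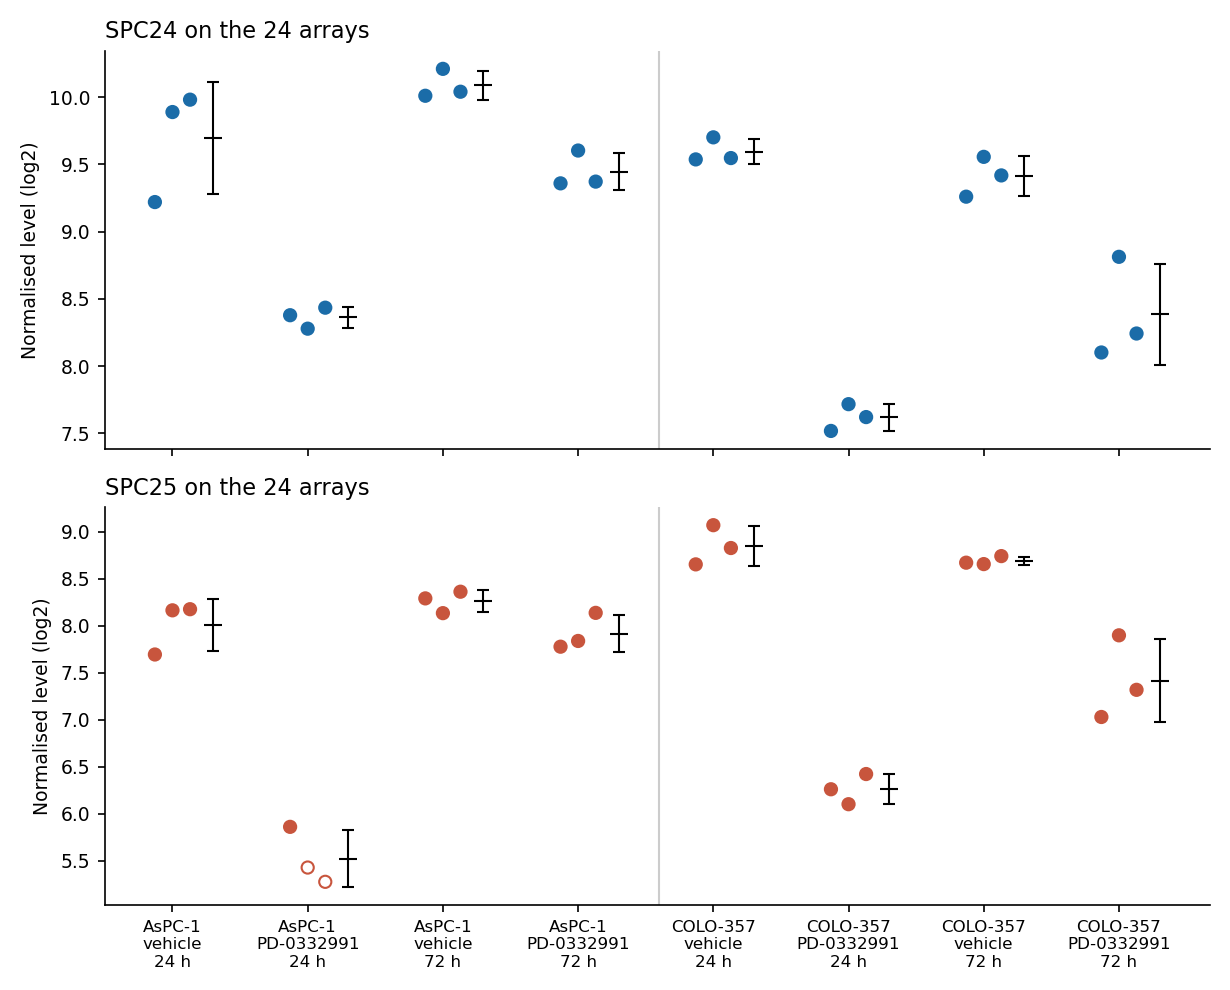
Normalised log2 level (vertical axis) of SPC24 (upper panel) and SPC25 (lower panel) on each of the 24 arrays by group, with the mean and SD of 3 arrays beside the points; open circles are arrays where the probe was not detected. Treated arrays at 24 h are the lowest of each line, and COLO-357 treated arrays at 72 h spread most widely for SPC25, with an SD of 0.443.

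After 24 h of PD-0332991 both transcripts were lower in both lines. In AsPC-1, SPC24 fell by 1.33 ± 0.18 log2 (SE, n = 3 arrays per group, limma adjusted p = 1.6e-05) to 39.7% of vehicle, with a 95% interval of -1.70 to -0.96. SPC25 fell by 2.49 ± 0.19 log2 in AsPC-1 (limma adjusted p = 7.4e-09) to 17.8% of vehicle, with a 95% interval of -2.89 to -2.09. Both were called in a comparison in which 5.79% of all 24750 tested probes were called lower. The size for SPC25 depended on the treatment of background, and it was detected on 1 of its 3 treated arrays. Without background correction it fell by 1.35, and in the authors' scaled values by 1.21, both still past the threshold. With the array below the lowest detected level raised to it, the change was -2.40. The authors' deposited table gave ratios of treated over control of 0.476 for SPC24 and 0.433 for SPC25.

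In COLO-357 at 24 h, SPC24 fell by 1.98 ± 0.18 log2 (limma adjusted p = 7.6e-08) to 25.4% of vehicle, with a 95% interval of -2.34 to -1.61. SPC25 fell by 2.59 ± 0.19 (limma adjusted p = 5.3e-09) to 16.6% of vehicle, with a 95% interval of -2.99 to -2.19. In this comparison 5.78% of all tested probes were called lower. All treated arrays were detected here, and without background correction the fall of SPC25 was 1.70. The authors' deposited table gave ratios of 0.296 for SPC24 and 0.238 for SPC25.

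At 72 h in AsPC-1, the comparison for which neither had been listed, SPC24 passed the test and SPC25 did not. SPC24 fell by 0.64 ± 0.18 log2 (limma adjusted p = 0.033) to 64.1% of vehicle, with all 3 treated arrays below all 3 vehicle arrays. This call was lost without any one of the 3 vehicle arrays or of treated replicates 1 and 3, with adjusted p up to 0.13, while the change stayed between -0.72 and -0.58. Without treated replicate 2 it was kept. SPC25 was at 78.7% of vehicle, a change of -0.34 ± 0.19 that did not pass (limma adjusted p = 0.36), with a 95% interval of -0.75 to 0.06. Of all tested probes, 2.79% were called lower in this comparison.

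In COLO-357 at 72 h both remained below vehicle. SPC24 fell by 1.03 ± 0.18 log2 (limma adjusted p = 0.00053) to 49.1% of vehicle, and SPC25 fell by 1.27 ± 0.19 (limma adjusted p = 0.00014) to 41.3% of vehicle. In this comparison 5.54% of all tested probes were called lower. Treated replicate 2 moved both values: without it the changes were -1.24 for SPC24 and -1.52 for SPC25. The authors' deposited table gave ratios of 0.444 and 0.427.

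**Figure D2:**
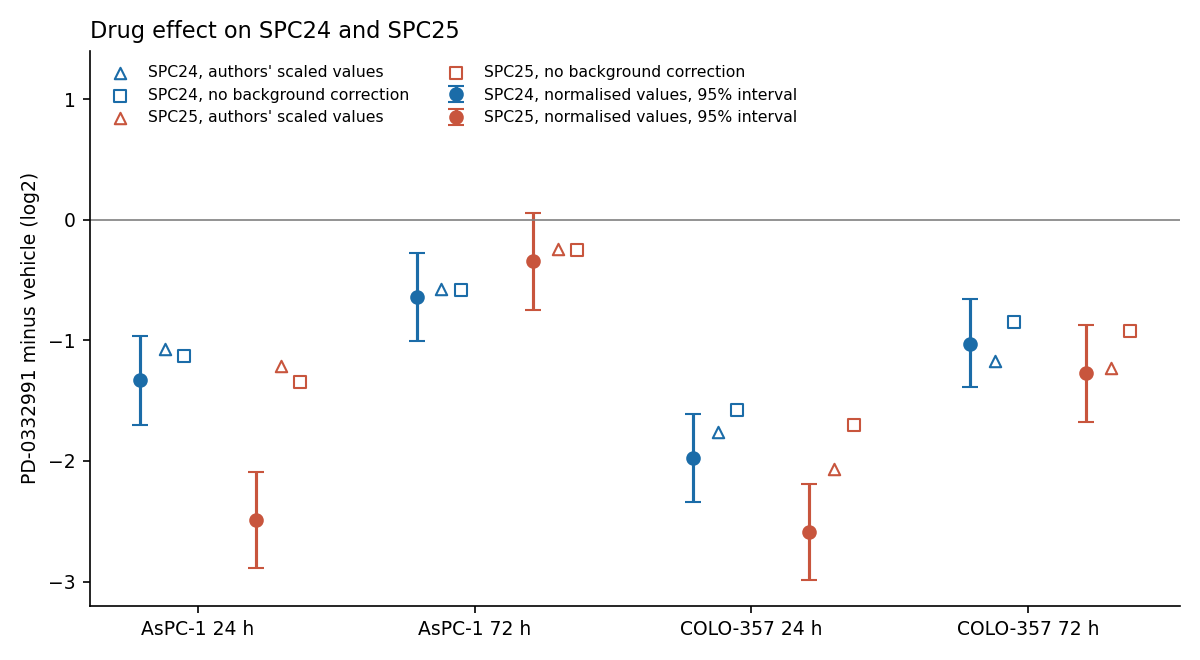
Difference between PD-0332991 and vehicle (log2, vertical axis) for SPC24 and SPC25 in each line at each time. Filled circles with bars are the normalised values with their 95% interval, open triangles the authors' scaled values and open squares values without background correction; SPC25 in AsPC-1 at 24 h ranges from -2.49 to -1.21 over these settings.

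The next question was whether the drug effect differed between the times. For SPC25 it was smaller at 72 h in AsPC-1, by 2.15 ± 0.27 log2 (limma adjusted p = 5.8e-05), and in COLO-357, by 1.31 ± 0.27 (limma adjusted p = 0.012). In these comparisons 1.88% and 1.25% of tested probes moved up. The AsPC-1 difference for SPC25 was 0.965 in the authors' scaled values and remained past the threshold. For SPC24 the same difference was 0.69 ± 0.25 in AsPC-1 (limma adjusted p = 0.16) and 0.95 ± 0.25 in COLO-357 (limma adjusted p = 0.054), so neither passed. With the replicate number added to the fit as a block shared by both lines, the SPC24 difference in COLO-357 passed (limma adjusted p = 0.019). The labels do not say whether a number marks a batch.

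Levels under the drug were themselves higher at 72 h than at 24 h. In AsPC-1 the treated level rose by 1.08 ± 0.18 log2 for SPC24 (limma adjusted p = 0.00037) and by 2.40 ± 0.19 for SPC25 (limma adjusted p = 3.8e-08), where 3.33% of tested probes rose. The rise of SPC25 was 1.23 in the authors' scaled values. In COLO-357 it rose by 0.77 ± 0.18 for SPC24 (limma adjusted p = 0.0034) and by 1.15 ± 0.19 for SPC25 (limma adjusted p = 0.00018), where 11.3% rose. The authors' scaled values gave smaller rises in COLO-357, of 0.389 for SPC24 and 0.641 for SPC25, both past the threshold. Before normalisation the treated COLO-357 signals of SPC24 were 322.5 to 387.8 at 24 h and 290.2 to 454 at 72 h. Those of SPC25 were 171.6 to 187.4 and 173.2 to 274.6. The median signal of these arrays was 109.9 to 119.6 at 24 h and 85.5 to 89 at 72 h. The rises in COLO-357 thus depend on the normalisation, and time and this shift between arrays cannot be told apart. Without treated replicate 2 at 72 h the rise of SPC24 there was 0.553. In the vehicle cultures no change with time passed for either member. It was 0.39 ± 0.18 for SPC24 (limma adjusted p = 0.27) and 0.25 ± 0.19 for SPC25 (limma adjusted p = 0.56) in AsPC-1. Without AsPC-1 vehicle replicate 1 at 24 h these were 0.151 and 0.0919. In COLO-357 the values were -0.18 ± 0.18 (limma adjusted p = 0.53) and -0.16 ± 0.19 (limma adjusted p = 0.63). In these vehicle comparisons 2.16% of probes were called in AsPC-1 and 17.6% in COLO-357.

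Across the 8 groups, SPC24 was highest in AsPC-1 with vehicle for 72 h, with a mean of 10.09 ± 0.106 log2 (SD, n = 3), and lowest in COLO-357 treated cultures at 24 h, at 7.62 ± 0.0997. The 4 groups ranked below the top, AsPC-1 vehicle at 24 h (9.70), COLO-357 vehicle at 24 h (9.60), AsPC-1 treated at 72 h (9.45) and COLO-357 vehicle at 72 h (9.41), each overlapped with the next. COLO-357 treated at 72 h (8.39) and AsPC-1 treated at 24 h (8.36) also overlapped. SPC25 was highest in COLO-357 vehicle cultures at 24 h, at 8.85 ± 0.209, and lowest in AsPC-1 treated cultures at 24 h, at 5.52 ± 0.303. Its COLO-357 vehicle groups overlapped with each other (8.85 and 8.69). The AsPC-1 groups with vehicle at 72 h (8.26), vehicle at 24 h (8.01) and drug at 72 h (7.92), and COLO-357 treated at 72 h (7.42), each overlapped with the next. In the authors' scaled values SPC24 was instead highest in COLO-357 with vehicle for 24 h, at 978.9 against 936.8 in AsPC-1 with vehicle for 72 h, so these orders hold for the normalised values. Levels of different probes are not compared with each other.

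Between lines, SPC25 was higher in COLO-357 than in AsPC-1 vehicle cultures at 24 h, by 0.84 ± 0.19 log2 (limma adjusted p = 0.00083), in a comparison in which 27.8% of tested probes were called higher. At 72 h its difference of 0.43 ± 0.19 did not pass (limma adjusted p = 0.065), where 28.8% of tested probes were called higher. In the authors' scaled values the SPC25 differences were 1.27 at 24 h and 0.806 at 72 h (adjusted p = 5.8e-06), and at 72 h it passed under 6 of 9 other settings. SPC24 was lower in COLO-357 at 72 h, by -0.68 ± 0.18 (limma adjusted p = 0.0026), where 26.7% of probes were called lower. That call was lost in the authors' scaled values (-0.14, adjusted p = 0.41). At 24 h SPC24 differed by -0.10 ± 0.18 (limma adjusted p = 0.66), or by 0.57 (adjusted p = 0.00098) in the authors' scaled values, so that the direction of its line difference depends on the scaling. That scaling put the median of all tested probes at 0.144 at 24 h, and relative to it the difference of SPC24 was 0.43.

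The drug effect itself was compared between lines (COLO-357 minus AsPC-1). At 24 h the difference was -0.64 ± 0.25 log2 for SPC24 (limma adjusted p = 0.27, 95% interval -1.16 to -0.12) and -0.10 ± 0.27 for SPC25 (limma adjusted p = 0.93, 95% interval -0.66 to 0.47). For SPC25 the authors' scaled values gave -0.86 (adjusted p = 0.019), with the AsPC-1 treated arrays near background. Without AsPC-1 vehicle replicate 1 the SPC24 difference at 24 h was -0.405. At 72 h it was -0.38 ± 0.25 for SPC24 (limma adjusted p = 0.5) and -0.93 ± 0.27 for SPC25 (limma adjusted p = 0.064). For SPC24 at 72 h it was -0.598 without COLO-357 treated replicate 2 and -0.242 without treated replicate 1. The SPC25 difference at 72 h passed without COLO-357 treated replicate 2 (-1.17, adjusted p = 0.0093) and in the authors' scaled values (-0.985, adjusted p = 0.0012). In the comparisons at 24 h and 72 h, 0.707% and 3.38% of tested probes were called.

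The members were then compared within arrays, as the log2 level of SPC24 minus that of SPC25 on each array. At 24 h this within-array difference was 1.16 log2 higher with drug than with vehicle in AsPC-1 and 0.61 higher in COLO-357, so that SPC25 had the larger fall. At 72 h it was -0.30 in AsPC-1 and 0.25 in COLO-357. The 2-sided exact permutation p was 0.1 in AsPC-1 at 24 h and in COLO-357 at both times, and 0.3 in AsPC-1 at 72 h, and 0.1 is the smallest value that 3 against 3 arrays allow. Without background correction the 24 h values were 0.22 in AsPC-1 (exact p = 0.2) and 0.12 in COLO-357 (exact p = 0.3), and in the authors' scaled values 0.14 (exact p = 0.5) and 0.31 (exact p = 0.1). The size of the difference at 24 h thus changed with the background step.

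**Figure D3:**
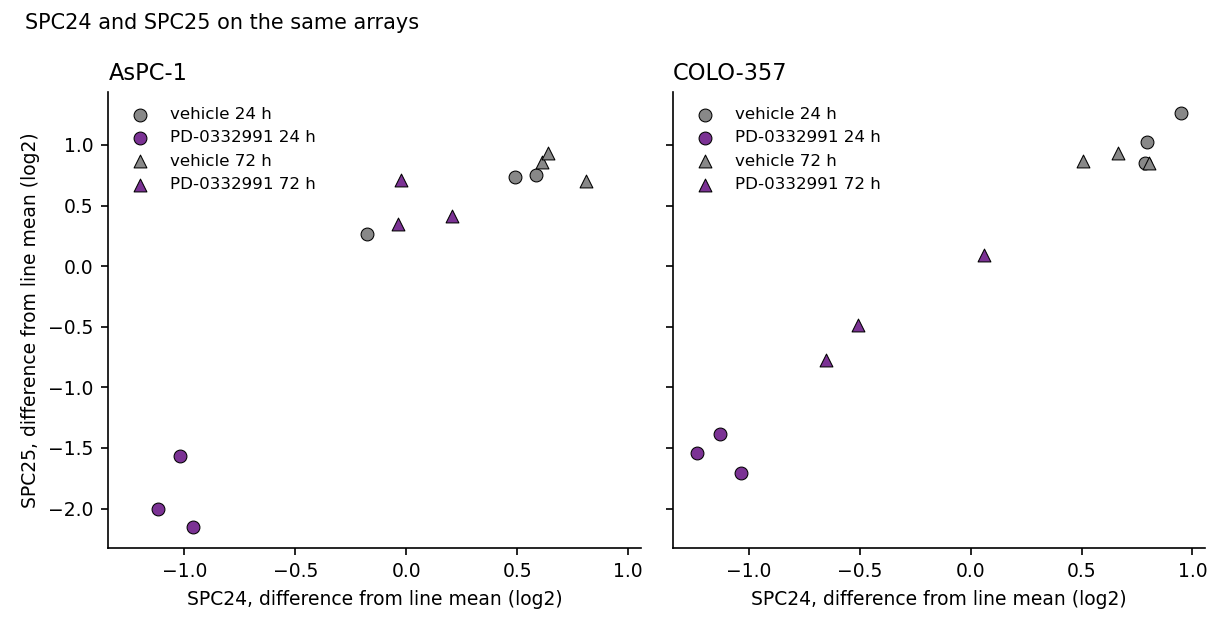
SPC25 against SPC24 on the same arrays, each as the log2 difference from the mean of its cell line's 12 arrays, with 24 h as circles and 72 h as triangles, vehicle in grey and PD-0332991 in purple. The AsPC-1 treated arrays at 72 h lie beside the vehicle arrays for SPC25. For SPC24 they lie above the treated arrays at 24 h and below all vehicle arrays except replicate 1 at 24 h. Those of COLO-357 lie between its vehicle arrays and its treated arrays at 24 h for both genes.

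Over the 24 arrays, centred on each line's mean, SPC24 and SPC25 had a Pearson r of 0.957 and a Spearman rho of 0.888. The arrays fall into groups by drug and time, so this describes the shared response. Deviations from the group means had an r of 0.611 (rho 0.449), or 0.377 (rho 0.255) without the 3 treated COLO-357 arrays at 72 h. Within lines these deviations had an r of 0.431 in AsPC-1 and 0.79 in COLO-357, with 12 arrays each. The replicates ran in the same order for both members in 3 of the 8 groups, among them that of the treated COLO-357 arrays at 72 h.

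The other kinetochore genes were taken from a list of 51, of which 23 were named in the files and tested. NUF2 had no named probe. The authors' lists name 22 of these 23 in COLO-357 and 16 in AsPC-1 at 24 h. At 72 h they name 4 in COLO-357 and 0 in AsPC-1. The counts at 24 h, and in part the count in COLO-357 at 72 h, are therefore not independent evidence. The count in AsPC-1 at 72 h is not free of selection either, since all 23 were named only through lists of other comparisons. At 24 h, 22 of 23 were lower in AsPC-1 (median -1.72 log2, against 0.01 for all tested probes) and 23 of 23 in COLO-357 (median -1.65, against 0.01). The exception was CENPW, an inner kinetochore subunit listed as C6orf173, at -0.62 in AsPC-1 (limma adjusted p = 0.2). At 72 h, 3 of 23 were lower in AsPC-1 (median -0.36) and 14 of 23 in COLO-357 (median -0.59), where 2.79% and 5.54% of all tested probes were called lower. None of the 23 was higher in either line at 72 h, where 3.26% and 5.74% of all tested probes were. Over the other background steps, scalings and filters the counts called lower at 72 h were 2 to 4 and 12 to 20. As for SPC25, the drug effect was smaller at 72 h than at 24 h for most of the 23. This difference passed for 20 in AsPC-1 (median 1.23 log2) and 15 in COLO-357 (median 0.929), where 1.88% and 1.25% of all tested probes moved up.

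Within the complex, NDC80, which binds the microtubule, fell by 1.99 ± 0.19 log2 in AsPC-1 (limma adjusted p = 9.7e-08) and by 1.77 ± 0.19 in COLO-357 at 24 h (limma adjusted p = 7.4e-07). At 72 h it was at -0.45 in AsPC-1 (limma adjusted p = 0.18) and -0.53 in COLO-357 (limma adjusted p = 0.069), neither past the threshold. ZWINT, which binds the KNL1 scaffold, fell by 1.47 and 1.82 at 24 h and by 0.66 in COLO-357 at 72 h. In AsPC-1 at 72 h ZWINT was at -0.39 (limma adjusted p = 0.12).

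Counts by group of genes are given beside the same shares of all tested probes. These were 5.79% in AsPC-1 and 5.78% in COLO-357 called lower at 24 h, and 2.79% and 5.54% at 72 h. The counts at 24 h, and in part those in COLO-357 at 72 h, come from genes the authors had listed as changed. Those in AsPC-1 at 72 h come from genes named only through lists of other comparisons. All these counts are descriptions, and a count above these shares is not independent evidence. Of 6 inner kinetochore genes, 5 fell in AsPC-1 and 6 in COLO-357 at 24 h. CENPA, the centromeric histone H3 variant, had the largest fall of the list at 24 h in both lines (-3.47 and -2.91), and CENPN, which binds CENPA nucleosomes, was at -0.999 and -0.796. At 72 h, 1 of 6 was lower in AsPC-1 (CENPA at -0.77, limma adjusted p = 0.049) and 5 of 6 in COLO-357, where CENPN was at -1.01 (limma adjusted p = 3e-05). The difference of the drug effect between lines at 72 h passed for 1 of the 23 genes, CENPN (-0.82, limma adjusted p = 0.016). That count is near the share of all tested probes that passed, 3.38%. For CENPW the difference was -0.79 and did not pass (limma adjusted p = 0.37).

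All 5 named motor and corona genes fell at 24 h in both lines. CENPE, a kinetochore kinesin, was at -2.01 and -2.05, and SPAG5 (astrin) at -2.14 and -1.66. At 72 h 0 of 5 were lower in AsPC-1 and 3 of 5 in COLO-357, while CENPF was at -0.05 there (limma adjusted p = 0.94). All 4 named checkpoint genes fell at 24 h as well, with the kinase gene BUB1 at -2.09 and -1.65. BUB1 remained lower at 72 h in AsPC-1 (-0.71, limma adjusted p = 0.021) and COLO-357 (-0.75, limma adjusted p = 0.009).

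The CENPA chaperone gene HJURP was at -2.71 and -2.24 at 24 h, and did not pass at 72 h (limma adjusted p = 0.13 and 0.59). The other named gene of centromeric loading, OIP5, was lower at 72 h in COLO-357 (-0.638, limma adjusted p = 0.011). In AsPC-1 at 72 h OIP5 was at -0.529 and did not pass (limma adjusted p = 0.053). Of the chromosomal passenger complex, which corrects wrong attachments at the NDC80 complex, 4 of 4 fell at 24 h in both lines, with AURKB at -2.42 and -2.48. At 72 h, 1 of 4 was lower in AsPC-1 and 2 of 4 in COLO-357. The scaffold INCENP was lower in both lines (-0.61 and -0.85), and AURKB in COLO-357 (-0.705, limma adjusted p = 0.022). BIRC5 (survivin) was at -0.13 (limma adjusted p = 0.77) and 0.23 (limma adjusted p = 0.46).

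By size of change in the normalised values, 1 of the 23 genes had a larger fall than SPC25 in COLO-357 at 24 h and 0 had at 72 h. In AsPC-1 at 72 h, where the change of SPC25 did not pass, 12 of the 23 had a larger fall. For SPC24 the counts were 5 and 1 in COLO-357, and 15 and 2 in AsPC-1 at 24 h and 72 h. SPC25 is not ranked in AsPC-1 at 24 h, where it was detected on 1 of 3 treated arrays.

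**Figure D4:**
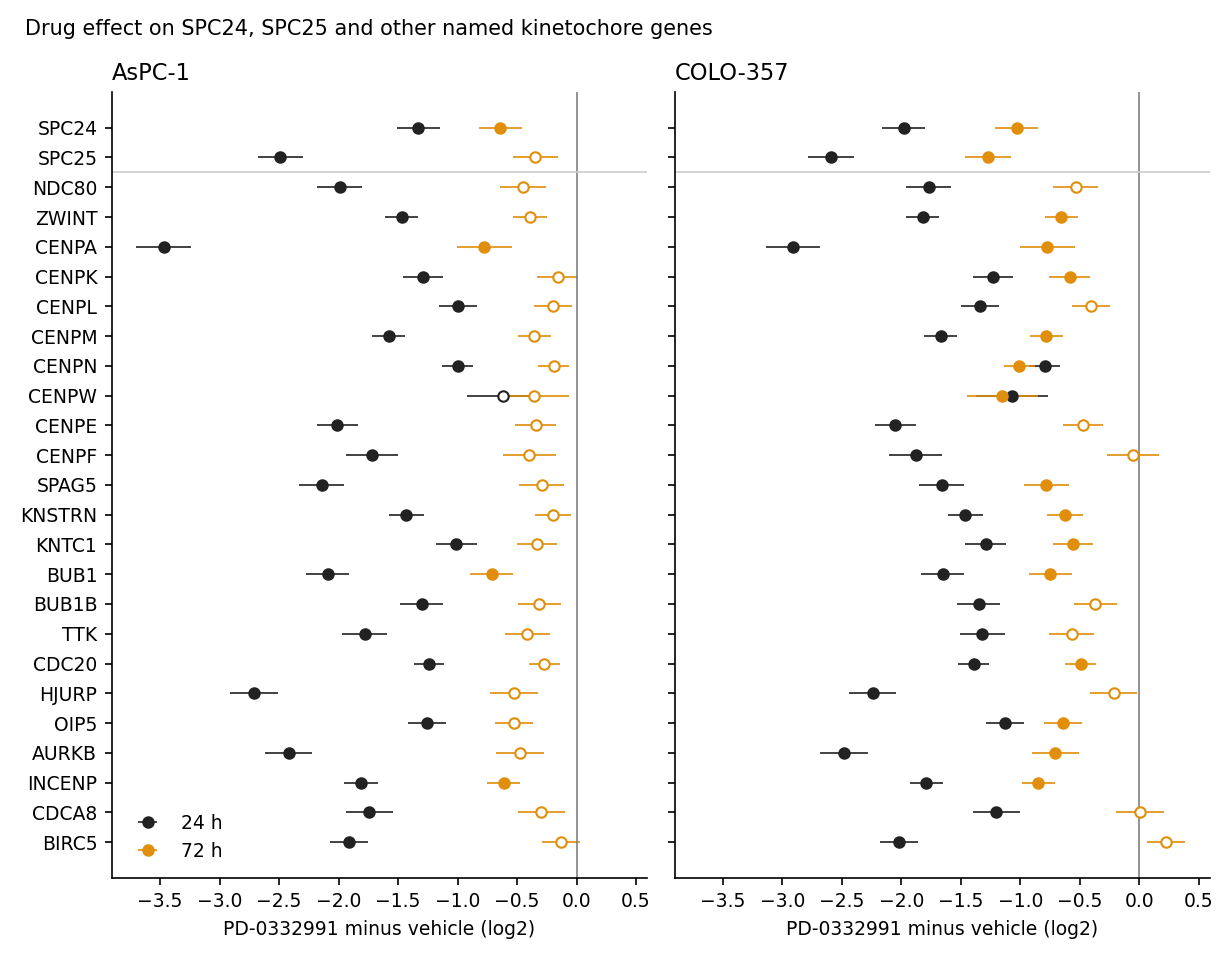
Difference between PD-0332991 and vehicle (log2, horizontal axis, bars are SE) for SPC24, SPC25 and 23 other named kinetochore genes, AsPC-1 left and COLO-357 right, with 24 h in black and 72 h in orange; filled points passed an adjusted p under 0.05. All points at 24 h lie below 0, and at 72 h 3 of the 23 genes in AsPC-1 and 14 in COLO-357 passed.

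Among 598 other named genes, the pattern most like that of SPC24 over the 24 line-centred arrays was that of HMGB2, a chromatin protein of dividing cells (r = 0.977), followed by CLCC1 (0.963), SPC25 (0.957), LRR1, deposited as PPIL5 (0.956), and the mitotic cyclin gene CCNB1 (0.955). HMGB2 changed by -1.80 and -0.60 in AsPC-1 and by -2.80 and -1.20 in COLO-357 at 24 h and 72 h. For SPC25 the nearest were the condensin subunit gene NCAPG (0.974), AURKB (0.972), PSRC1 (0.972), the kinase gene MELK (0.971) and CENPM (0.97), and SPC24 ranked 23. The most opposed patterns were those of SLC16A4, a monocarboxylate transporter family gene (-0.89), and PORCN (-0.865) for SPC24, and of SDSL (-0.853) and SLC16A4 (-0.836) for SPC25. SLC16A4 changed by 1.43 and 0.65 in AsPC-1 and by 1.60 and 1.57 in COLO-357. These 598 genes were named through the authors' lists of changed genes, and the arrays fall into groups by drug and time. A high or an opposed r was therefore favoured by the selection and is not independent evidence of a link between genes.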

How the data were processed

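Per the file headers, the deposited signal table holds a linear intensity and a detection p-value per probe and array, not normalised; the software behind them was not given in these sources. In the authors' value table each intensity was that signal times 1 factor per array (tested). The authors' deposited lists give a ratio of treated over control. Here neqc applied normal-exponential background correction by detection p-value, an offset of 16 and quantile normalisation (limma 3.58.1, R 4.3.3). The 24750 probes with detection p under 0.05 on at least 3 arrays were fitted over 24 arrays with 1 mean per group (lmFit, eBayes). The p-values, 2-sided, were adjusted by Benjamini-Hochberg over all of them and called under 0.05. The number of arrays limits the precision. The procedure was tested on simulated data, where it called 75.5% to 79.5% of simulated 2-fold changes for the drug contrasts, but 37% to 43% for the differences of drug effects between times or lines. Each simulated set had 200 of the 24750 probes changed in 1 group and no other difference between groups. The share of changed probes in the data can differ, so these percentages need not carry over.

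Members and lists were chosen with earlier results of these data known. Besides the members, the text names kinetochore genes and, per member, the 5 most alike and 2 most opposed named genes by Pearson r. A gene is its named tested probe with the highest mean. Deviations of same-numbered drug and vehicle arrays had an r over probes of 0.12 to 0.47 in COLO-357 and of 0.01 to 0.12 in AsPC-1. The treated array was most like its same-numbered vehicle array except for COLO-357 replicate 3 at both times and AsPC-1 replicate 1 at 24 h. Whether the numbers pair the arrays thus stayed unclear in both lines, and the main fit did not use them. The replicate block gave each number an effect shared by both lines. Alternatives were the background step, scaling, detection filter, groups fitted, array weights, a replicate block, leaving out each array and, added after seeing the data, an offset of 50. Figures used matplotlib 3.10.9 in Python 3.11.15.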

Additional observations from a re-analysis of the deposited data

Results flagged for a closer look

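The drug effect on SPC25 differed between times in both lines by the interaction term of the fit. The difference, 72 h minus 24 h, was 2.15 log2 in AsPC-1 (limma adjusted p = 5.8e-05) and 1.31 in COLO-357 (limma adjusted p = 0.012), and it was positive under every alternative tried. It ranged from 0.965 to 2.26 in AsPC-1 and from 0.776 to 1.42 in COLO-357 over settings other than leaving out an array. In AsPC-1 the SPC25 probe was detected on 1 of 3 treated arrays at 24 h. The authors had listed SPC25 in both lines at 24 h and in COLO-357 at 72 h. What part this selection has in the difference was not tested. Nor was the difference particular to SPC25. Of the 23 other named kinetochore genes, the same term was called higher for 20 in AsPC-1 (median 1.23) and 15 in COLO-357 (median 0.929). Of all tested probes, 1.88% and 1.25% were called higher. Those genes too were named through the authors' lists.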

How the results depend on the processing

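Of 532 values recomputed under another setting, 488 kept their direction and their side of the threshold or stayed close to the reported value. Under every alternative SPC24 and SPC25 kept their calls in AsPC-1 at 24 h and in COLO-357 at both times. For the change of the SPC24 effect between times, array weights gave 0.83 in AsPC-1 (adjusted p = 0.038). In COLO-357 it passed with array weights (0.858), detection p under 0.01 (0.95), no background correction (0.729), an offset of 50 (0.854) and the replicate block (0.95, adjusted p = 0.019). The replicate block changed no other call of the members. The vehicle change of SPC24 with time in AsPC-1 was 0.51 in the authors' scaled values (adjusted p = 0.044). The vehicle line difference of SPC25 at 72 h passed with 75th percentile scaling (0.539), array weights (0.434), the authors' scaling (0.806), no background correction (0.337), an offset of 50 (0.39) and only the groups compared (0.427). That of SPC24 at 24 h was 0.112 and 0.573 with the 75th percentile and authors' scalings, and at 72 h -0.135 with the latter. Relative to the median of all probes, which moved to -0.269 with the former, SPC24 was at 0.381 at 24 h. For SPC25 the line difference of the drug effect at 24 h was 0.0638 with array weights and -0.863 in the authors' values. At 72 h it passed with 75th percentile scaling (-0.988), array weights (-1.05), the authors' scaling (-0.985), no background correction (-0.671) and an offset of 50 (-0.815).

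The drug effect on SPC24 minus that on SPC25 in AsPC-1 at 24 h was 0.838 with the 75th percentile, 0.135 in the authors' values, 0.223 without background correction and 0.617 with an offset of 50. In COLO-357 the last 3 gave 0.312, 0.123 and 0.355 at 24 h, and the authors' values and no background correction 0.0563 and 0.0752 at 72 h. The causes were not tested.

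Without 1 array each, the SPC24 effect in AsPC-1 at 72 h ranged from -0.721 to -0.581, and its change between times from 0.548 to 0.929 in AsPC-1 (adjusted p = 0.019 without vehicle 24 h replicate 1) and from 0.736 to 1.09 in COLO-357 (adjusted p = 0.034 without treated 72 h replicate 1). The vehicle line difference of SPC24 at 24 h ranged from -0.34 to 0.0406. The line difference of the SPC25 drug effect ranged from -0.221 to 0.0713 at 24 h, turning sign without AsPC-1 treated replicate 1 (0.0713), AsPC-1 vehicle replicate 1 (0.0605) or COLO-357 vehicle replicate 2 (0.0116), and from -1.17 to -0.737 at 72 h.

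The number of probes called of all tested, in either direction, moved more. It ranged over the settings from 674 to 3333 around 2900 in AsPC-1 at 24 h, from 961 to 2144 around 1499 at 72 h, from 2622 to 4413 around 2796 in COLO-357 at 24 h and from 2123 to 5873 around 2791 at 72 h. For the change between times it ranged from 365 to 937 around 762 in AsPC-1 and from 411 to 1239 around 456 in COLO-357. For the line difference it ranged from 41 to 361 around 175 at 24 h and from 808 to 2989 around 836 at 72 h, and for vehicle over time from 3 to 803 around 535 in AsPC-1. Leaving out 1 array lowered the 4 drug counts to as few as 1966, 831, 1840 and 1705 in that order, the counts for the change to 489 and 271, those for the line difference to 70 and 485, and those for vehicle over time to 145 in AsPC-1 and, from 4358, to 2799 in COLO-357. Among settings that kept all arrays, the lowest counts in AsPC-1 and in the 24 h line difference came from fitting only the groups compared.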
